A study of Mus musculus with 12 samples.

Results

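The red cell membrane was followed here through 8 genes chosen by symbol, Sptb, Ank1, Slc4a1, Epb41, Epb42, Rhd, Kel and Add2, out of 56748 genes in the count table. The same symbols held 41 of the 19323 splicing events in the event table. The cells were G1E-ER4, a murine proerythroblast line that lacks endogenous GATA1 and carries a GATA1-estrogen receptor fusion, so that estradiol starts maturation towards basophilic erythroblasts (basoE). Sf3b1 K700E/+ cells were compared with Sf3b1 +/+ cells, both made by CRISPR-Cas9 editing and hygromycin selection of the same line and both treated with β-estradiol for 24 h, with 3 libraries each. Each genotype is 1 clone, so the genotype and the clone cannot be told apart. The labels do not say which culture each library came from, and p-values therefore measure the spread between these libraries, which may be technical.

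The red cell membrane skeleton is a lattice of spectrin tetramers whose tails meet at short actin filaments. Ankyrin ties the lattice to the anion exchanger band 3, and another junction of Epb41 protein, adducin and actin ties it to other surface proteins. Inherited defects of these proteins give spherocytic or elliptocytic red cells, and several of the surface proteins carry blood group antigens. Sf3b1 is a core subunit of the U2 particle that recognises the branch point and the 3′ splice site, and its K700E mutation is known for the use of cryptic 3′ splice sites.

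Total counts ran from 44045337 to 50077827 in the K700E/+ libraries and from 38785471 to 40702174 in the +/+ libraries. The labelled cell type was met by its markers: the 9 erythroid markers (Klf1, Gata1, Tfrc, Epor, Alas2 and 4 globin genes) were all detected, with summed levels of 6892 to 11848 CPM (counts of a gene scaled to the size of its library) in K700E/+ and 9031 to 13076 CPM in +/+. Replicate 1 had the lowest sum in both genotypes and stood apart from replicates 2 and 3. Sf3b1 itself lay between 738 and 766 CPM in all 6 libraries. Gata1 was higher in K700E/+ at 315 to 323 CPM against 149 to 175 CPM, a log2 fold change of 1.00 (SE 0.07; edgeR adjusted p = 9.43e-06), and the counts do not separate the fusion from the native gene. Among the other erythroid markers Hbb-bt, an adult β-globin gene, passed and was lower, at 22.9, 43.0 and 61.1 CPM in K700E/+ against 78.3, 152 and 169 CPM, a log2 fold change of -1.66 (SE 0.36; edgeR adjusted p = 0.00501). The 7 myeloid markers summed to 9.38 to 30.7 CPM in +/+ and to at most 0.111 CPM in K700E/+, with the defining markers Mpo and Elane at 0 in all libraries but 1, which held a single Mpo read. The 4 mast cell and eosinophil markers summed to 8.72 to 31.8 CPM against 0.678 to 1.66 CPM, and the 5 megakaryocyte markers to 16.003 to 27.6 CPM against 8.70 to 18.3 CPM. Of these, Gp1bb had no read in any library and Epx none in K700E/+, and Prg2 averaged 21.8 CPM in +/+ and 0.863 CPM in K700E/+. All 3 mast cell and eosinophil genes tested passed and were lower in K700E/+, and none of the 3 megakaryocyte genes tested passed. The part of these markers in the results was not tested. In bulk RNA, fewer cells of a type and less RNA per cell cannot be told apart.

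The sequences below belong to events and genes described further on. In the Kel gene (chromosome 6, minus strand), reads used a 68-base cryptic exon inside intron 17. It is the last part of the first exon of the annotated non-coding transcript Kel-202 (GENCODE M21), and the capitals mark the 68 bases, preceded by the 3 bases in front of the cryptic acceptor.
Kel cryptic exon in intron 17: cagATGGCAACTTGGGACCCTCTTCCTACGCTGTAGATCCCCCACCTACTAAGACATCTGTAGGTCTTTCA
Another acceptor of Kel lay inside exon 2 of Kel-201. The capitals mark the 26 bases that are left out when it is used, and they end in the AG of that acceptor.
Kel exon 2, first 30 bases: ATTCTTTGCCCTCCTCCTTCCTCTAGtcac
The 63-base cassette exon of Epb41 (exon 14 of Epb41-204) codes part of the spectrin-actin binding domain and is shown as an exon with a known role in the red cell membrane.
Epb41 63-base exon: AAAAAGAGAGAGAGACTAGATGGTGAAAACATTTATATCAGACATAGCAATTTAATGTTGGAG
Promoters are shown for Kel, Rhd and Epb42, the 3 genes that fell, from 250 bases before to 50 bases after the start site (RefSeq, GRCm38.p6). Capitals mark AGATAA or TGATAA, forms of the motif of GATA factors, on either strand. Any part of these motifs in the lower levels was not tested.
Kel promoter, chr6:41704276-41704575, minus strand: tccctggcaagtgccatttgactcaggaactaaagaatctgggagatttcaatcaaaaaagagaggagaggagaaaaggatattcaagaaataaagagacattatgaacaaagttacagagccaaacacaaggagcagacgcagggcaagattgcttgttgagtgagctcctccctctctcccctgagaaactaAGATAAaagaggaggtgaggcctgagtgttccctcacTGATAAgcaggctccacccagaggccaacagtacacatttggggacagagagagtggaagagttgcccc
Rhd promoter, chr4:134864286-134864585, plus strand: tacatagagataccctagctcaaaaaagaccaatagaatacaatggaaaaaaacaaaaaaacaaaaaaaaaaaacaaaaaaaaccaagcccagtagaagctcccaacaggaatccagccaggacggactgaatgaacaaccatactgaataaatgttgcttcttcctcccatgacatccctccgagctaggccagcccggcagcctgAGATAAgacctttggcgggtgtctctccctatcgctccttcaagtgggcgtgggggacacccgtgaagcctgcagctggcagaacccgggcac
Epb42 promoter, chr2:121036828-121037127, minus strand: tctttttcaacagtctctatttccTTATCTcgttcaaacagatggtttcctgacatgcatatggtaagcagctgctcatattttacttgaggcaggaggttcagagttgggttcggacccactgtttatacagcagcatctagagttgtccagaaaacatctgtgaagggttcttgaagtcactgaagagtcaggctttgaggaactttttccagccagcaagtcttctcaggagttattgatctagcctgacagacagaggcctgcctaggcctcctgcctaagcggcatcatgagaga

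At 24 h Sptb and Ank1 rose, Rhd, Kel and Epb42 fell, all by less than 2-fold, and Slc4a1, Epb41 and Add2 did not pass (edgeR quasi-likelihood F test, adjusted p under 0.05 over 12547 genes). Thus 2 of 8 were called higher, against 21.3% of all genes tested, and 3 of 8 lower, against 23.1%, and with 8 genes these shares show nothing particular to them. None was a differentially expressed gene (DEG) by the additional requirement of an absolute log2 fold change over 1, which 10.3% of genes met. The same 0 was found by DESeq2. The 5 genes with an unadjusted p under 0.05 by edgeR were the ones that passed after adjustment, so this count adds nothing to the shares above. The median log2 fold change of the 8 genes was 0.08, beside -0.01 over all genes tested. Together they took 0.638% to 0.746% of all counts in K700E/+ and 0.564% to 0.616% in +/+, so that no library of either genotype reached the range of the other.

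**Figure D1:**
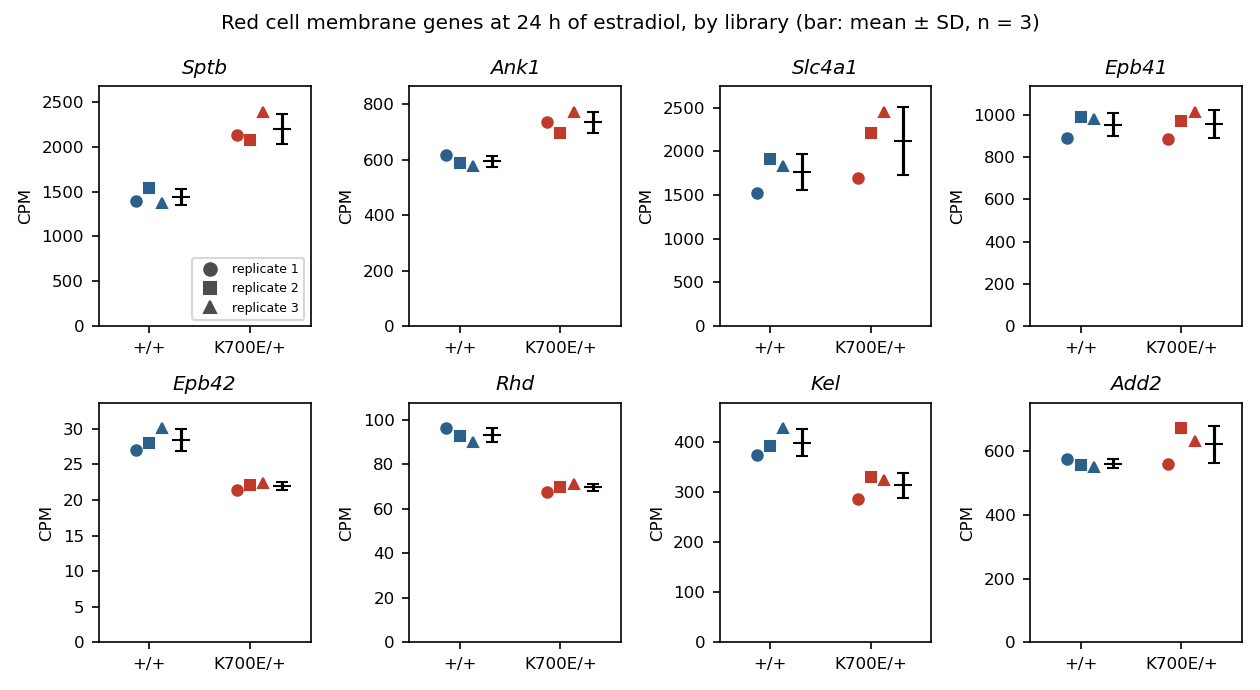
Level of each of the 8 genes in CPM (y axis, from 0) in the +/+ (blue) and K700E/+ (red) libraries, with the replicate number as the symbol and the mean ± SD of 3 libraries as a black bar. Sptb and Ank1 sit higher and Epb42, Rhd and Kel lower in every K700E/+ library, while Slc4a1, Epb41 and Add2 overlap between genotypes.

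Sptb codes β-spectrin, which carries the binding sites for ankyrin and for the actin junction. It stood at 2126, 2077 and 2391 CPM in the K700E/+ libraries and at 1397, 1543 and 1376 CPM in the +/+ libraries. The groups did not overlap, and the lowest K700E/+ library lay well above the highest +/+ library. The log2 fold change was 0.61 (SE 0.08), a fold of 1.53, with an adjusted p of 0.000268 by edgeR.

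Ank1 codes ankyrin, the bridge from β-spectrin to band 3. Its levels were 737, 697 and 774 CPM in K700E/+ and 617, 589 and 577 CPM in +/+. All 3 K700E/+ libraries were above all 3 +/+ libraries, with a log2 fold change of 0.31 (SE 0.06; edgeR adjusted p = 0.0034).

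Slc4a1 codes band 3, the anion exchanger and the main membrane anchor of the skeleton. It measured 1695, 2215 and 2454 CPM in K700E/+ and 1527, 1918 and 1833 CPM in +/+. Within each replicate number the K700E/+ library was the higher one, but the genotypes overlapped, since replicate 1 was low in both, as it was for the globins. Hbb-bs, for example, was at 2651 CPM in K700E/+ replicate 1 against 4729.8 and 5861 CPM in the other two, and at 4824 CPM in +/+ replicate 1 against 7289 and 7642 CPM. Its log2 fold change was -0.58 with an edgeR adjusted p of 0.11, and -0.62 with 6.67e-05 under the replicate block. The log2 fold change of Slc4a1 was 0.27 (SE 0.14) and the edgeR adjusted p was 0.138. With the replicate number as a block the change was 0.26 and the edgeR adjusted p fell to 0.00422. Without K700E/+ replicate 1 it was 0.41, with an edgeR adjusted p of 0.0123, and without replicate 1 in both genotypes, an alternative chosen after seeing the data, it was 0.32, with an edgeR adjusted p of 0.00177.

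Epb42 codes a transglutaminase-like protein without enzyme activity that binds band 3 and ankyrin. It stood at 21.3, 22.2 and 22.4 CPM in K700E/+ and 27.0, 28.0 and 30.1 CPM in +/+. No libraries overlapped, and the log2 fold change was -0.37 (SE 0.07; edgeR adjusted p = 0.00335).

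Epb41 and Add2 belong to the junction at the actin filament, where Epb41 protein strengthens the contact of spectrin with actin and β-adducin caps the filament and recruits spectrin. Epb41 measured 885, 975 and 1017 CPM in K700E/+ and 893, 992 and 981 CPM in +/+. The ranges overlapped, with a log2 fold change of 0.01 (SE 0.07; edgeR adjusted p = 0.96). Add2 measured 559, 673 and 634 CPM in K700E/+ and 577, 558 and 551 CPM in +/+. K700E/+ replicate 1 lay within the +/+ range and the other two lay above it. Its log2 fold change was 0.15 (SE 0.07; edgeR adjusted p = 0.139), and without K700E/+ replicate 1 it was 0.22 with an edgeR adjusted p of 0.0246. Without replicate 1 in both genotypes it was 0.24, with an edgeR adjusted p of 0.00316.

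Rhd, a subunit of the Rh complex that carries the Rh antigens, fell. It stood at 67.7, 70.0 and 70.9 CPM in K700E/+ and at 96.2, 92.8 and 90.0 CPM in +/+. The libraries were tight within each genotype and far apart between them, with a log2 fold change of -0.42 (SE 0.06; edgeR adjusted p = 0.000366). Kel, an endopeptidase of the M13 family that carries the Kell antigens and is linked to the Xk protein, fell as well. It stood at 285, 329.8 and 324 CPM in K700E/+ and at 374, 393 and 427 CPM in +/+, again without overlap. Its log2 fold change was -0.35 (SE 0.08; edgeR adjusted p = 0.00553).

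Levels between genes were compared only as CPM per kilobase of exon (union of GENCODE M21 exons, which counts exons that these cells may not use). In +/+ the order was Slc4a1 (359.7 ± 42.0, SD, n = 3), Kel (144 ± 9.71), Sptb (118 ± 7.46), Epb41 (59.9 ± 3.42), Rhd (58.3 ± 1.95), Add2 (55.4 ± 1.33), Ank1 (43.9 ± 1.496) and Epb42 (5.24 ± 0.284). Epb41 and Rhd overlapped in range, as did Rhd and Add2. In K700E/+ the order was Slc4a1 (434 ± 79.3), Sptb (181 ± 13.9), Kel (113 ± 8.79), Add2 (61.4 ± 5.69), Epb41 (60.1 ± 4.21), Ank1 (54.4 ± 2.82), Rhd (43.6 ± 1.04) and Epb42 (4.05 ± 0.103). Add2, Epb41 and Ank1 overlapped with their neighbours here. Sptb and Kel, whose per-kilobase ranges did not overlap within either genotype, stood in opposite order in the 2 genotypes.

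The gene whose profile over the 6 libraries was nearest to each of these genes was sought among 8771 genes of at least 5 CPM, by the root mean square difference of centred log2 CPM. Hbq1b, a globin gene, was nearest to Slc4a1 (0.044). Msto1 was nearest to Ank1 (0.013), Zfp444 to Sptb (0.044), Rnf10 to Epb41 (0.014) and Fam193b to Epb42 (0.019). Fam110a was nearest to Rhd (0.026), Xrcc4 to Kel (0.027) and Pfdn2 to Add2 (0.032).

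The other genes of the membrane moved in both directions, as did all genes tested, of which 21.3% were higher and 23.1% lower. No list was tested as a set. Of 9 further skeleton genes, all tested, 4 were higher, 4 were lower and 1, Add1, did not pass, with a median log2 fold change of -0.08. Tmod1, which caps the slow-growing ends of the short actin filaments, was at 17.2, 19.99 and 19.7 CPM in K700E/+ against 10.4, 11.2 and 10.0 CPM in +/+, a log2 fold change of 0.84 (SE 0.10; edgeR adjusted p = 0.000151). Dmtn, the actin bundling protein dematin, rose by 0.56 (SE 0.12), and Tpm1, a tropomyosin that lies along the filament, by 0.29 (SE 0.06). Mpp1, a membrane palmitoylated scaffold protein of the Epb41 junction, was at 100.3, 102 and 113 CPM against 171, 187 and 196 CPM, a log2 fold change of -0.81 (SE 0.07; edgeR adjusted p = 4.22e-05). Actb, the actin of the filaments, had a log2 fold change of -0.66 (SE 0.07) and Tpm3 one of -0.30 (SE 0.06).

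Of 26 further surface genes, 21 were tested, 9 were higher, 6 were lower and 6 did not pass, with a median log2 fold change of 0.15. The shares over all genes tested were 21.3% higher and 23.1% lower. Kcnn4, the calcium-activated potassium channel of the red cell, rose by 0.94 (SE 0.06), from 119.8 to 129.6 CPM in the +/+ libraries to 229 to 253 CPM in K700E/+. Smim1, which carries the Vel antigen, rose by 0.90 (SE 0.07), Art4, which carries the Dombrock antigens, by 0.93 (SE 0.10), and Atp2b4, the plasma membrane calcium pump, by 0.48 (SE 0.06). Cd55, the decay-accelerating factor that limits complement, was at 20.4, 20.97 and 20.2 CPM against 39.9, 52.1 and 50.2 CPM, a log2 fold change of -1.21 (SE 0.10; edgeR adjusted p = 2.73e-05). Cd44, a hyaluronan receptor that declines during erythroid maturation, had one of -0.94 (SE 0.13). The water channel gene Aqp1, a surface gene of mature red cells, had at most 1 read in any library and was not tested.

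Of 14 paralogs of the 8 genes that serve other tissues, 7 were tested. Of these, 2 were higher and 3 lower, beside 21.3% higher and 23.1% lower over all genes tested. The non-erythroid spectrins went in opposite directions. Sptan1 was at 4.49, 3.43 and 2.53 CPM in K700E/+ against 0.529, 0.634 and 0.763 CPM, a log2 fold change of 2.44 (SE 0.26), and Sptbn1 at 60.6, 66.6 and 67.0 CPM against 131, 198 and 169 CPM, a log2 fold change of -1.36 (SE 0.13). Epb41l2 had 274 reads over the K700E/+ libraries and none over the +/+ libraries, which is at least 80.4-fold higher against the floor, set at 3 counts for the whole group. Slc4a2 changed by -0.52 (SE 0.09) and Tgm2 by -0.32 (SE 0.06), both with an edgeR adjusted p under the threshold. Ank2 had a log2 fold change of -0.21 (SE 0.10; edgeR adjusted p = 0.11), and with the replicate block its edgeR adjusted p was 0.00624. Without K700E/+ replicate 3 or +/+ replicate 1 its log2 fold change was -0.29, with an edgeR adjusted p of 0.0489 and 0.0145. The median of the tested paralogs was -0.21, also with Epb41l2 set at its bound.

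**Figure D2:**
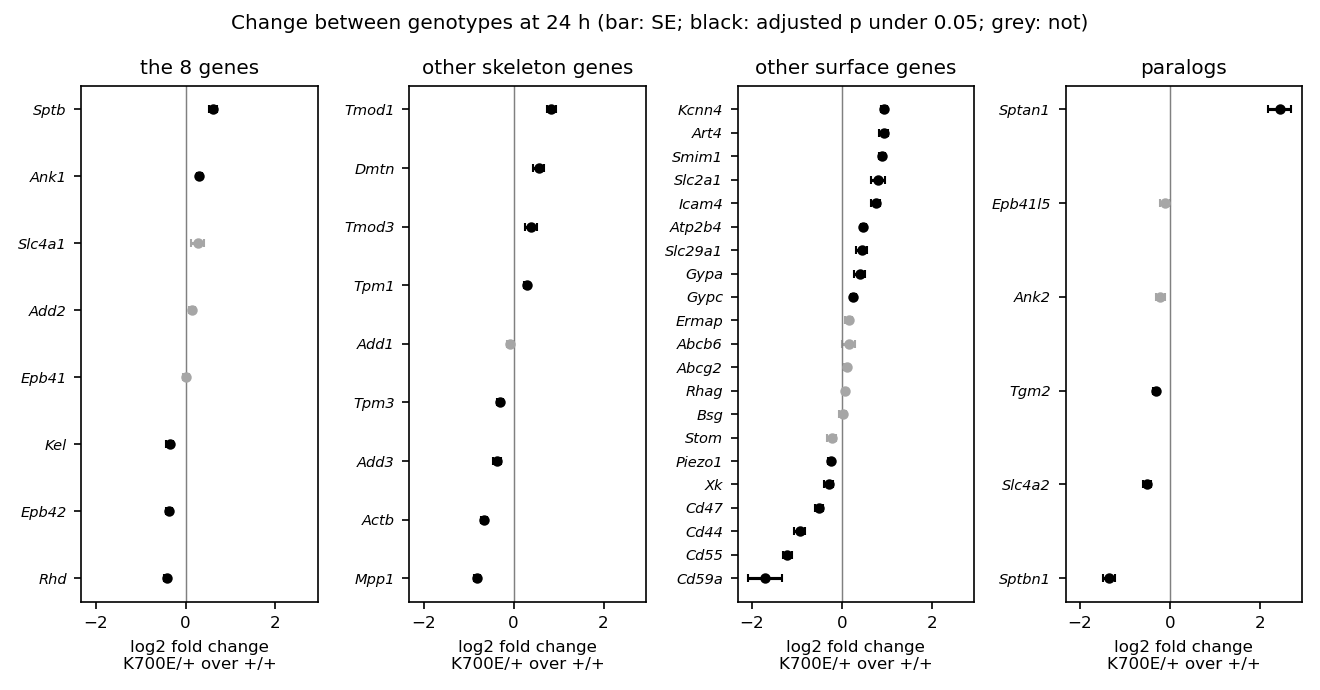
Log2 fold change of K700E/+ over +/+ (x axis) with its SE for the 8 genes, further skeleton genes, further surface genes and paralogs, where black points passed an adjusted p of 0.05 and grey points did not; Epb41l2, with no read in +/+, is left out. Each of the 4 groups holds black points on both sides of 0, from Sptan1 at 2.44 to Cd59a at -1.71. Cd59a rests on few reads, 4, 4 and 7 in the K700E/+ libraries and 12, 17 and 15 in the +/+ libraries.

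RefSeq promoters were given for 6 of the 8 genes, with 3 alternative starts for Epb41, so that 8 windows were searched. A GATA motif in the form AGATAA or TGATAA, on either strand, was found in 3 of the 8 windows and in 18.6% of all 32851 promoters of the same length. Kel held AGATAA at position -56 and TGATAA at position -19 from the start site, Rhd held AGATAA at -43, and Epb42 held AGATAA on the other strand at -226. With the forms AGATAG and TGATAG added, a choice made after seeing the data, 7 of the 8 windows held a motif, those of Sptb and Add2 and 2 of Epb41 included, and so did 29.8% of all promoters. CACACCC, a form of the CACCC box bound by the erythroid factor Klf1, was in none of the 8 windows and in 7.95% of all promoters. Klf1 itself measured 282 to 368 CPM in K700E/+ and 284 to 332 CPM in +/+, with a log2 fold change of 0.05 (SE 0.10).

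Splicing was described by the percent spliced in (PSI), here the fraction of reads, after division by path length, that belong to the longer of an event's 2 paths. All 41 events of the 8 genes were tested. They lay in 6 of the genes: 25 in Kel, 5 in Add2, 4 in Epb41, 3 each in Ank1 and Sptb and 1 in Rhd. A differential splicing event (DSE) had an adjusted p under 0.05 and an absolute PSI difference over 0.10, and 8 of the 41 passed, against 6.31% of 17656 events tested. Of the 8, 7 were in Kel and 1 in Epb41, with 4 higher and 4 lower PSI in K700E/+. The Kel events came from 3 places of 1 gene, and those within an intron share reads, so they are not independent. By number of DSEs, 9 of the 717 genes with any DSE, Kel included, had at least the 7 of Kel, and 10 of 5315 genes had at least its 25 tested events.

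**Figure D3:**
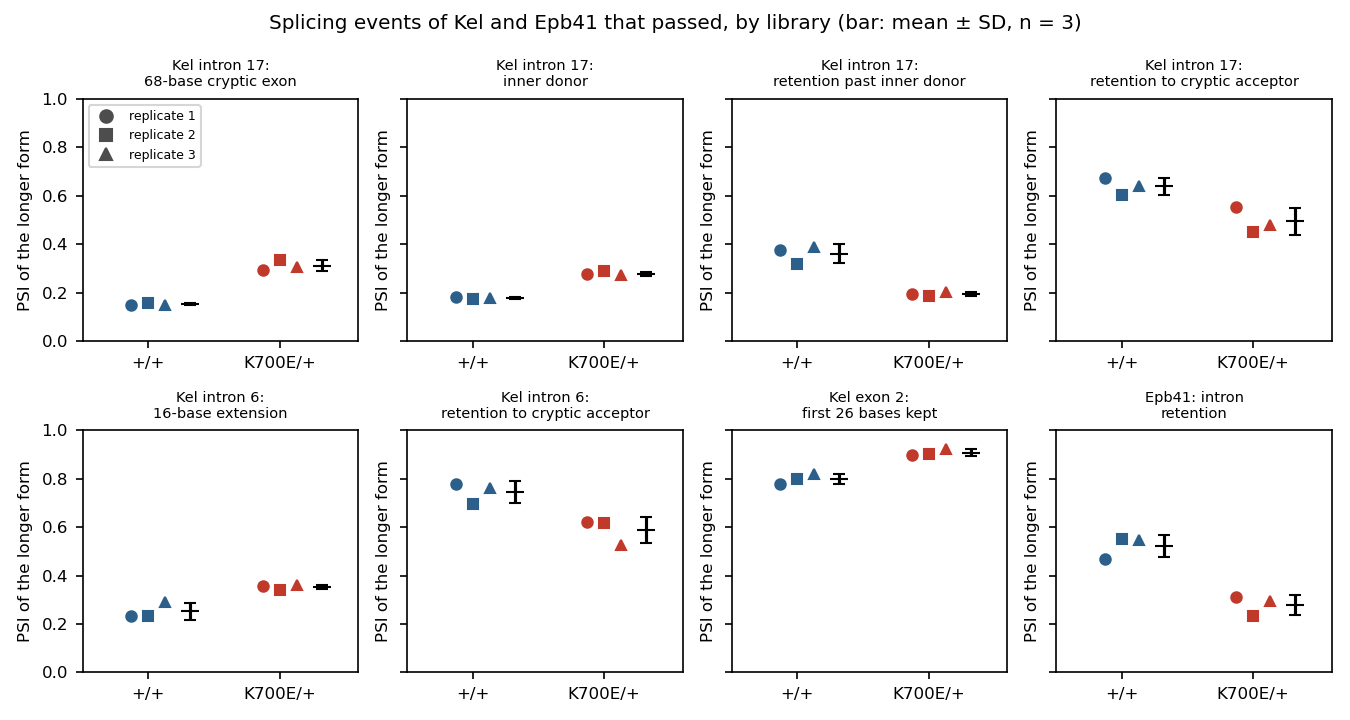
PSI of the longer form (y axis, 0 to 1) of the 8 events that passed, in +/+ (blue) and K700E/+ (red) libraries, with the replicate number as the symbol and the mean ± SD of 3 libraries as a black bar. The 8 events were selected by their difference, so that the genotypes do not overlap in any panel adds no support. The cryptic exon in Kel intron 17 lies between 0.293 and 0.336 in K700E/+ and between 0.149 and 0.159 in +/+.

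Intron 17 of Kel runs between the exon bases 41664551 and 41664879 of chromosome 6 (GRCm39) and is 327 bases long. The cryptic exon shown above takes up bases 41664715 to 41664782. Its acceptor was not annotated, and its donor was. Its PSI was 0.293, 0.336 and 0.305 in K700E/+ and 0.149, 0.159 and 0.1503 in +/+, and every K700E/+ library lay above every +/+ library. The PSI difference was 0.159 (edgeR adjusted p = 5.45e-07), on 1369 reads for inclusion and 1651 for skipping in K700E/+ and 796 and 2412 in +/+. The exon is not a multiple of 3 bases long. Inserted between exons 17 and 18 of Kel-201, it brings a TAG stop codon at base 31 of the exon. The stop comes after 638 codons, of which the first 628 belong to the 713 codons of the annotated reading frame.

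The other called events of intron 17 use the same sites. Use of the inner donor with the bases before it had a PSI of 0.276, 0.287 and 0.271 in K700E/+ and 0.182, 0.174 and 0.176 in +/+ (difference 0.101, edgeR adjusted p = 0.000432). Retention of the 163 bases after this donor fell, from 0.377, 0.317 and 0.388 in +/+ to 0.193, 0.184 and 0.203 in K700E/+ (edgeR adjusted p = 1.94e-05). Retention of the 96 bases in front of the cryptic acceptor fell too, from 0.673, 0.604 and 0.640 to 0.555, 0.449 and 0.479 (edgeR adjusted p = 0.00742), without passing in limma on logit PSI (limma adjusted p = 0.126). In the 96-base event the spliced form joins the cryptic exon. In the 163-base event it is the junction out of the inner donor, which RNA that keeps the 96 bases can also use. This junction had 888 reads in K700E/+ and 531 in +/+, against 436 and 240 at the cryptic acceptor. Retention of intron 17 as a whole was 0.164 ± 0.00194 (SD, n = 3) in K700E/+ and 0.138 ± 0.0114 in +/+, a difference of 0.0255 that did not pass (edgeR adjusted p = 0.314).

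In intron 6 of Kel, between exon bases 41676160 and 41678847, an acceptor that is not annotated lay 16 bases upstream of the annotated one, at 41676176. Its use lengthens exon 7 by 16 bases. The PSI of the longer form was 0.356, 0.341 and 0.36004 in K700E/+ and 0.234, 0.231 and 0.291 in +/+, without overlap. The difference of 0.1003 (edgeR adjusted p = 0.0162) was at the edge of the PSI threshold, and leaving out K700E/+ replicate 1 or 3 or +/+ replicate 1 or 2 took it below, to 0.0987, 0.0965, 0.0915 and 0.0899, with edgeR adjusted p of 0.0522, 0.0578, 0.0562 and 0.0813. Retention up to this acceptor fell from 0.779, 0.695 and 0.761 in +/+ to 0.622, 0.617 and 0.528 in K700E/+ (edgeR adjusted p = 0.000293). Neither event passed with limma on logit PSI, where the limma adjusted p was 0.1301 for the extension and 0.228 for the retention. Retention of the whole annotated intron was 0.381 ± 0.0372 (SD, n = 3) against 0.376 ± 0.0524 (edgeR adjusted p = 0.929).

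In exon 2 the direction was the other one. The acceptor 26 bases inside the exon, also not annotated, was used less in K700E/+. The longer form, which keeps the 26 bases shown above, had a PSI of 0.898, 0.901 and 0.924 in K700E/+ and 0.778, 0.800 and 0.820 in +/+, a difference of 0.108 (edgeR adjusted p = 5.38e-05), which did not pass with limma on logit PSI (limma adjusted p = 0.0514). Reads of the shorter form numbered 51, 55 and 35 in K700E/+ against 106, 119 and 96 in +/+. The deposited event table places this event in coding sequence, but in Kel-201 of GENCODE M21 the first 88 bases of exon 2 lie before the start codon, and the 26 bases are then in the 5′ untranslated region. Without +/+ replicate 1 the difference was 0.0975, below the threshold.

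**Figure D4:**
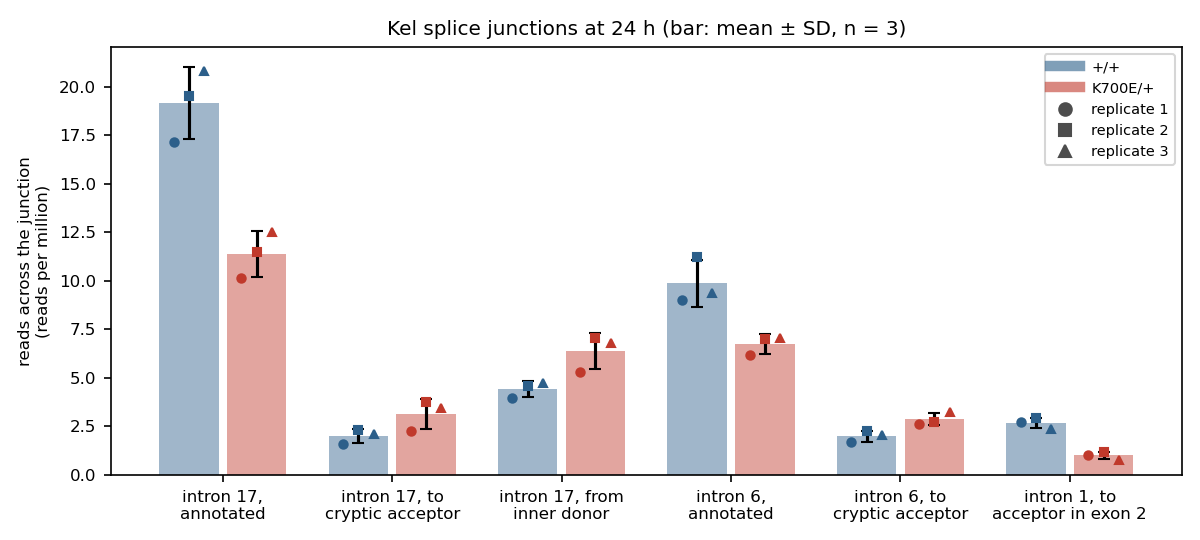
Reads across 6 Kel splice junctions, divided by the gene counts of the library (y axis, scaled as CPM, from 0), in +/+ (blue) and K700E/+ (red), as mean ± SD of 3 libraries with the libraries as points. The annotated junctions of introns 17 and 6 are lower in K700E/+, and so is the junction to the acceptor inside exon 2. The junctions into the cryptic acceptors and out of the inner donor of intron 17 are higher on average.

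Scaled as CPM by the gene counts of the library, the annotated junction of intron 17 had 11.4 ± 1.19 (SD, n = 3) in K700E/+ and 19.1 ± 1.85 in +/+. The junction into the cryptic acceptor had 3.15 ± 0.771 against 2.00 ± 0.365, with K700E/+ replicate 1 (2.28) just below the highest +/+ library (2.31), and the junction out of the inner donor 6.39 ± 0.943 against 4.43 ± 0.413. For intron 6 the annotated junction had 6.76 ± 0.511 against 9.87 ± 1.19 and the cryptic one 2.88 ± 0.323 against 2.00 ± 0.282. The junction to the acceptor inside exon 2 had 1.01 ± 0.205 against 2.68 ± 0.269. These are descriptions on the library scale and move with the level of Kel, which was lower in K700E/+.

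Whole annotated introns of Kel were retained at widely different levels. Of the 18 introns of Kel-201, 9 were seen as retention of the whole annotated intron, and 0 of the 9 passed by edgeR, against 6.34% of the 5706 retention events tested. Mean retention ran from 0.106 to 0.381 in K700E/+ and from 0.0973 to 0.376 in +/+, and the differences from -0.0386 to 0.0345. An unadjusted p under 0.05 was found for 1 of the 9, and limma on logit PSI called 0, against 624 of all 17656 events tested.

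**Figure D5:**
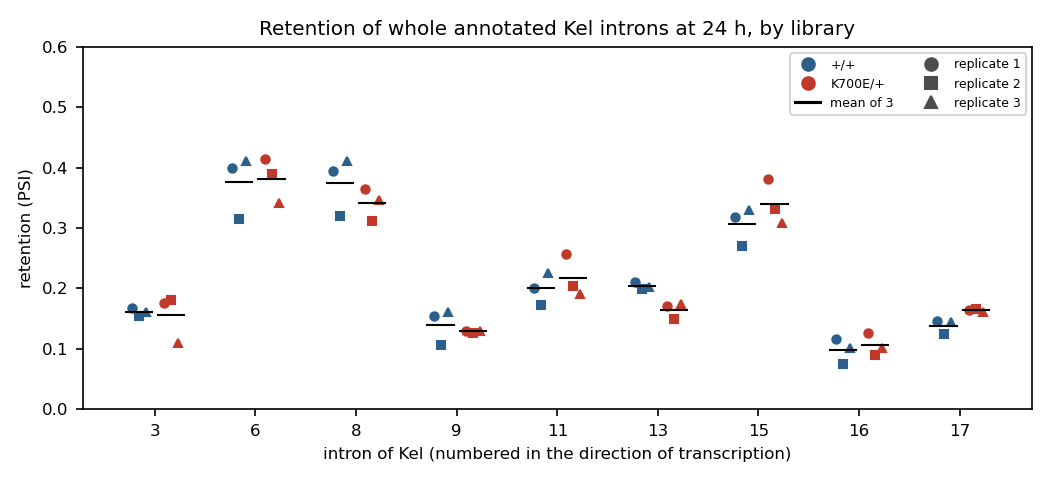
Retention (PSI, y axis) of the 9 annotated Kel introns with a whole-intron event, by library, in +/+ (blue) and K700E/+ (red), with the mean of 3 as a line. The introns differ more from each other, with means of 0.0973 to 0.381, than the genotypes do within an intron.

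Epb41 had 1 DSE, with the largest PSI difference of the 8. It was retention of a 1147-base intron that is annotated in 1 of 19 Epb41 transcripts, Epb41-210, downstream of a 450-base exon that Epb41-201 lacks (chromosome 4, exon bases 131663178 and 131664326, GRCm39). Its PSI was 0.311, 0.231 and 0.293 in K700E/+ and 0.469, 0.550 and 0.549 in +/+, a difference of -0.245 (edgeR adjusted p = 0.00938). All K700E/+ libraries were below all +/+ libraries, but the reads were few. Retained reads numbered 299 over the K700E/+ libraries and 492 over the +/+ libraries, and spliced reads 50 and 29. Without K700E/+ replicate 2 the edgeR adjusted p was 0.0663, and without +/+ replicate 3 it was 0.0524.

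The other Epb41 events did not pass. The 63-base exon of the spectrin-actin binding domain was included at 0.253, 0.229 and 0.246 in K700E/+ and 0.237, 0.257 and 0.276 in +/+, a difference of -0.0139 (edgeR adjusted p = 0.782) with overlapping libraries. A 160-base retention event differed by 0.306 in PSI, but rested on as few as 10 reads in a library and had an edgeR adjusted p of 0.127. A choice between acceptors 3 bases apart gave 0.893 ± 0.00608 (SD, n = 3) against 0.896 ± 0.00323.

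Ank1 had 3 events and no DSE. A 117-base exon was included at 0.0349, 0.0452 and 0.0324 in K700E/+ and at 0.0664, 0.0613 and 0.0603 in +/+. The libraries did not overlap and the edgeR adjusted p was 0.0264, but the difference of -0.0251 was well under the PSI threshold. An alternative donor 75 bases apart near the 3′ end of the gene, both forms of which are annotated, gave 0.921, 0.925 and 0.918 in K700E/+ and 0.882, 0.874 and 0.903 in +/+ (difference 0.0351, edgeR adjusted p = 0.0757). Retention of a 78-base intron, the Ank1 event with the most reads, gave 0.863 ± 0.0147 (SD, n = 3) against 0.864 ± 0.00873.

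The remaining events were in Add2, Sptb and Rhd, and none passed. Retention of Add2 intron 13 was supported by 32872 reads in K700E/+ and 25666 in +/+ and gave 0.446 ± 0.0461 (SD, n = 3) against 0.443 ± 0.0735 (edgeR adjusted p = 0.963). An Rhd alternative donor gave 0.961 ± 0.0129 against 0.947 ± 0.0189 (edgeR adjusted p = 0.528). The 3 Sptb events were retention of introns that had at most 8 spliced reads in a genotype. Slc4a1 and Epb42 had no event in the table.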

How the data were processed

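Poly(A) RNA of G1E-ER4 cells was sequenced as stranded paired-end libraries. Alignment by the authors used STAR 2.7.9 against GRCm39, per the labels, and their deposited table gives unnormalized counts for every gene in every library. The annotation release and the strand setting of the counting are not given in the sources used here, so reads of overlapping or antisense genes may be mixed in. DESeq2 1.30.1 is named for the authors' own comparisons, which were not used. The authors assembled splicing events over all 6 libraries with KisSplice and deposited packed read numbers of both paths for 2 read files per library, with a PSI fraction. The 6 libraries before estradiol were not analysed here.

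Gene counts went into edgeR 4.0.16 under R 4.3.3 (filterByExpr, TMM, quasi-likelihood F test, Benjamini-Hochberg adjustment over 12547 genes). CPM values are counts divided by TMM-scaled library sizes. For events, the read numbers of a library's files were added up and PSI was recomputed with each path scaled by its length (Pearson correlation with the deposited PSI 0.983 over 111044 values). Events needed 10 reads or more in each library, counting both paths, and the term tested was the interaction of path with genotype, beside terms for the library and the path. The floor of 3 counts covers counting error only, while each SE and SD includes the spread between libraries. The steps were tested on simulated data with a fixed spread for genes and the same PSI in every library of a genotype. The replicate effect seen here was not simulated, so error rates for these libraries are not known from it. Alternatives used DESeq2 1.42.0, limma 3.58.1, other filters and leaving out libraries.

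Same-numbered libraries deviated together (correlations 0.632, 0.480 and 0.465 over 8771 genes). Replicates 2 and 3 also went together across numbers. K700E/+ replicate 2 correlated at 0.211 with +/+ replicate 3, and K700E/+ replicate 3 at 0.253 with +/+ replicate 2. Replicate 1 correlated with the other numbers at -0.440 to -0.496. That the replicate number pairs the libraries is therefore only a hint from the data, clearest for replicate 1. Library pairs within a genotype differed by more than sampling noise (chi-square per degree of freedom 8.07 to 35.8).

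Introns were numbered by matching their lengths to GENCODE M21 (GRCm38), without converting coordinates. The 8 genes and the lists were chosen with earlier results of these data known, the lists from textbook knowledge. A skeleton gene of these lists is not reported here. Genes named from each list are the 6 with the lowest adjusted p. Named events are those that passed, and otherwise the event with the most reads of each gene. Add1, Cd59a, Hbb-bs, Hbb-bt, Aqp1, the single myeloid, megakaryocyte, mast cell and eosinophil genes, the other events of Epb41 and Ank1 and the whole-intron events of Kel fall outside these rules and were chosen after their values were seen.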

Additional observations from a re-analysis of the deposited data

How the results depend on the processing

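The 3 lower genes, and the absence of any of the 8 past a log2 fold change of 1, held under DESeq2 size factors, the DESeq2 Wald test, no filter on low counts, the replicate block and every left-out library. The 2 higher genes became 3 with the replicate block, by Slc4a1, 2 to 4 when 1 library was left out, and 4 without replicate 1 in both genotypes, a setting chosen after seeing the data, by Slc4a1 and Add2. The log2 fold change of Epb41 ran from -0.04 to 0.06 when 1 library was left out. Of the further lists, surface genes ranged from 8 to 9 higher and 4 to 7 lower when 1 library was left out, and were 10 higher and 7 lower both with the block and without replicate 1 in both genotypes. Calls over all genes moved too. Of 12547 genes, 2670 were higher and 2899 lower in the main fit, and 3471 and 3663 with the block. Without replicate 1 in both genotypes they were 3201 and 3414 of 12676. With 1 library left out, 2154 to 3081 were higher and 2241 to 3268 lower, of 12784 to 12855 tested. The log2 fold change of Klf1 ran from -0.05 to 0.14 when 1 library was left out. Hbb-bs passed without K700E/+ replicate 3 (-0.83), without +/+ replicate 1 (-0.76), without replicate 1 in both genotypes (-0.49) and with no filter on low counts (-0.56). Among the genes whose fold change is printed, the block changed the calls of Slc4a1, Ank2 and Hbb-bs and no other, and all 8 DSEs passed under it.

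Of the 8 DSEs, 4 passed with limma on logit PSI, 2 of them higher and 2 lower, 1 at a PSI threshold of 0.20, with 0 higher and 1 lower, and 5 to 7 when 1 library was left out, with 2 to 4 in either direction. The cryptic exon of Kel intron 17 and the retention after its donor passed in each of these except the PSI threshold of 0.20. Calls over all events fell too. Of 17656 events, 1114 were called in the main fit and 624 with limma on logit PSI. With 1 library left out, 856 to 969 were called, of 17692 to 17753 tested. The inner-donor event was at 0.0962 without K700E/+ replicate 2 and 0.0992 without +/+ replicate 2, and the 96-base retention had an edgeR adjusted p of 0.0802 without K700E/+ replicate 2. The 16-base extension was at 0.0898 without replicate 1 in both genotypes. Events that never passed changed sign: retention of the 78-base Ank1 intron was at 0.000379 with junction reads only, 0.0074 without replicate 1 in both genotypes and -0.0095 to 0.00411 when 1 library was left out, Add2 intron 13 at -0.00644 with junction reads only and -0.0280 to 0.0435 with 1 library left out, and Sptb retention of 724 bases at -0.0664 to 0.0257. The cause was not tested. Promoter windows with a GATA motif went from 3 to 7 with AGATAG and TGATAG added. The 3 Sptb events and the 160-base Epb41 event rest on few reads, and the effect of depth on their calls was not tested.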
